A study of Mus musculus with 76 samples.

Results

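Protein-coding genes were grouped by the chromatin of their promoters in the diencephalon of wild type mouse embryos late in gestation (E17.5), and the groups were compared in their RNA levels. A histone mark or the DNA-binding protein CTCF was counted as present where a peak of each of the 3 ChIP-seq replicates touched the window from 2 kb before to 2 kb after the gene start, the 5′ end of the gene in the GENCODE annotation on mm39. Of the 56923 genes in the count tables, 21618 were protein-coding genes with a position in the annotation, and all 21618 were placed in 1 of 8 promoter states, the combinations of H3K4me3, H3K27ac and H3K27me3. A gene without a mark is thus one that did not meet this rule, and it may have a peak in 1 or 2 replicates. The series holds 76 samples of wild type and hs754-humanized embryos at E11.5 and E17.5, and the states and levels given here come from 16 of them: 12 peak lists (3 replicates for each of 4 targets) and 4 RNA samples, all homozygous wild type at E17.5. Each replicate was made from the pooled diencephalon of 3 embryos, and none of these animals carried a transgene or treatment.

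The diencephalon is the part of the forebrain that forms the thalamus, the habenula, the prethalamus and the hypothalamus. H3K4me3 is laid down at the starts of genes, above all where CpG dinucleotides are dense, because writers of the mark bind unmethylated CpG. H3K27ac is placed by acetyltransferases at promoters and enhancers in use. H3K27me3 is placed by Polycomb repressive complex 2, which holds developmental genes silent in cells that do not need them, and promoters that carry both H3K4me3 and H3K27me3 are known as bivalent. CTCF is a zinc-finger protein that stops loop extrusion by cohesin and so marks the borders of chromatin domains, and it also binds near many gene starts. In pooled tissue, marks that lie together in one cell and marks that lie on the same promoter in different cells cannot be told apart, nor can fewer cells of a type and less RNA per cell.

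Promoters of 6 genes from 5 of the states are shown as examples of the sequences grouped here. Each is the 200 bases before the gene start, read from GRCm39 5′ to 3′ on the strand of the gene, with CpG dinucleotides in capitals. Sox11 (chr12:27392574-27392773, minus strand) and Tuba1a (chr15:98851590-98851789, minus strand) had H3K4me3 and H3K27ac, both with CTCF. Tcf7l2 (chr19:55729988-55730187, plus strand) had all 3 histone marks and Atoh1 (chr6:64705909-64706108, plus strand) had H3K4me3 and H3K27me3. Hoxa2 (chr6:52141812-52142011, minus strand) had H3K27me3 alone and Alas2 (chrX:149330171-149330370, plus strand) had no histone mark.
Sox11: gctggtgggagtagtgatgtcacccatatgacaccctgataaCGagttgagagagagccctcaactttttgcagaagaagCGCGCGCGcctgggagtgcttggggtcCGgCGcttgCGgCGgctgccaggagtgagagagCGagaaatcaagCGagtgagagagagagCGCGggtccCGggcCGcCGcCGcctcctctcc
Tuba1a: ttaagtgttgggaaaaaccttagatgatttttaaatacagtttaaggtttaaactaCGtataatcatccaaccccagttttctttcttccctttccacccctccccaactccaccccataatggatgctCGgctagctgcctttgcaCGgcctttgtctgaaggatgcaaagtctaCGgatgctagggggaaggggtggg
Tcf7l2: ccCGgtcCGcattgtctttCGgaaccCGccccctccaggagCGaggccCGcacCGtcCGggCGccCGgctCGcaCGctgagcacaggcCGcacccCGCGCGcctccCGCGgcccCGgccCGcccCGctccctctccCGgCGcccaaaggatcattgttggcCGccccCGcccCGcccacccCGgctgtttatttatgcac
Atoh1: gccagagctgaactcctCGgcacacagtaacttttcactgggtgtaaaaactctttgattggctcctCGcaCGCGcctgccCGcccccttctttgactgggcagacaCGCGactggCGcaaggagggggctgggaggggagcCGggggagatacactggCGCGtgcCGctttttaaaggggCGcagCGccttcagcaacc
Hoxa2: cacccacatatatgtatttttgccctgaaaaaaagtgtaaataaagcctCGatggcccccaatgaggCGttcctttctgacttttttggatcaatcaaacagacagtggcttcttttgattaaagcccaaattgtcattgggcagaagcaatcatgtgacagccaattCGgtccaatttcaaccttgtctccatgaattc
Alas2: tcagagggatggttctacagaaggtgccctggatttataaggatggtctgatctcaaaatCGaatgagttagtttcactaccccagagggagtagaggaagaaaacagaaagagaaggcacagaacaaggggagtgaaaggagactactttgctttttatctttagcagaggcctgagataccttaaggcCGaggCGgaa
The Tcf7l2 promoter held 27 CpG dinucleotides in these 200 bases, Sox11 17 and Atoh1 14, against 4 for Tuba1a and 3 each for Hoxa2 and Alas2. Tuba1a, a tubulin of growing neurons with one of the strongest H3K4me3 peaks of the data, therefore had few CpGs just before its start, whereas 40 lay in the 1001 bases around it.

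The RNA libraries were poly(A)-selected and held 19090571 to 24272569 counts on genes, of which 92.7% to 95.0% fell on protein-coding genes. Levels are in CPM, the count of a gene scaled to a library of 1000000 counts on genes, and 1 count stood for 0.0412 to 0.0524 CPM. Markers of the tissue were present: the thalamic factors Tcf7l2 (128 ± 11 CPM per kb of exon, SD, n = 4 here and below) and Lhx9 (22.9 ± 8.12), the habenular factor Pou4f1 (5.50 ± 0.858), the hypothalamic factor Otp (14.6 ± 4.26) and the prethalamic factor Dlx1 (14.4 ± 1.53). The hindbrain factors Hoxa2 and Hoxb2 were at 0 counts in every sample. RNA of neighbouring regions and other cell types was present too: Neurod6 of the telencephalon (5.44 ± 0.516), Cldn5 of endothelium (18.2 ± 8.92) and Cx3cr1 of microglia (2.25 ± 0.655). Of the choroid plexus markers Ttr was high (113 ± 35.1), and Folr1 (0.525 ± 0.164) and Kcnj13 (0.264 ± 0.0765) were low. RNA replicate 1 stood apart: its correlation with the other samples over the protein-coding genes was 0.962 to 0.967, against 0.995 to 0.997 among the others. Among genes with a mean of at least 1 CPM, its difference from the mean of the others followed the GC content of the exons. The median log2 difference was -1.28 in the fifth of these genes with the least GC and 0.77 in the fifth with the most. The summed red blood cell genes of replicate 1 reached 914 CPM against 237 to 460. The part of these in any result below was not tested, and most of the contrasts are also given without replicate 1.

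H3K4me3 lay at 13430 genes (62.1%), H3K27ac at 12135 (56.1%), CTCF at 8213 (38.0%) and H3K27me3 at 4750 (22.0%). The H3K4me3 calls were close to all or none: 7917 genes had no peak in any replicate, and 135 and 136 genes had one in 1 or 2 replicates. CTCF was less uniform, with 1524 and 1442 genes in 1 or 2 replicates, and H3K27me3 had 1246 and 655. Genes just outside the rule differed in level by target. With H3K4me3 in 2 replicates the median gene stood at 2.49 ± 0.12 CPM, against 23.4 ± 1.33 with 3 replicates, and with CTCF in 2 replicates it stood at 23.1 ± 1.28, against 23.1 ± 1.02 with 3. These last genes were at the level of the members, so the CTCF threshold did not cut between high and low genes.

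A few of the 8 states held most genes. H3K4me3 and H3K27ac without H3K27me3 marked 9104 genes (42.1%), all 3 histone marks 2665 (12.3%), H3K4me3 and H3K27me3 without H3K27ac 1372 (6.35%), H3K27me3 alone 664 (3.07%), and 7158 (33.1%) had no histone mark. The rarer states were H3K27ac alone (317 genes, 1.47%), H3K4me3 alone (289, 1.34%) and H3K27ac with H3K27me3 (49, 0.227%). H3K4me3 and H3K27me3 thus met at 4037 promoters (18.7%), and 2665 of these also had H3K27ac. This last count was 1156 when peaks needed a -log10 q of at least 5 and 1121 when H3K27me3 needed a fold enrichment of at least 4. Over all genes 13000 (60.1%) were expressed, here meaning at least 1 CPM in each of the 4 samples.

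Levels fell into clear steps by state. The median gene with H3K4me3 and H3K27ac stood at 30.7, 33.4, 35.8 and 34.9 CPM in replicates 1 to 4, and the median gene with all 3 marks at 18.1, 18.3, 18.3 and 18.4 CPM. With H3K4me3 and H3K27me3 but no H3K27ac the values were 1.18, 1.28, 1.34 and 1.30 CPM, and with H3K27me3 alone 0.139, 0.105, 0.149 and 0.124 CPM, which is 2 or 3 counts. The median of the unmarked genes was 0 CPM in all 4 samples. None of these 5 ranges overlapped. Between them lay H3K27ac with H3K27me3 (4.20 to 5.93 CPM), H3K4me3 alone (2.08 to 3.18) and H3K27ac alone (1.20 to 1.41), and H3K27ac alone overlapped in range with H3K4me3 and H3K27me3. The active state, as H3K4me3 with H3K27ac and without H3K27me3 is called from here on, held 42.1% of the genes and took 77.2% ± 0.686 of the counts on protein-coding genes, and the state with all 3 marks took 14.4% ± 0.694.

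**Figure D1:**
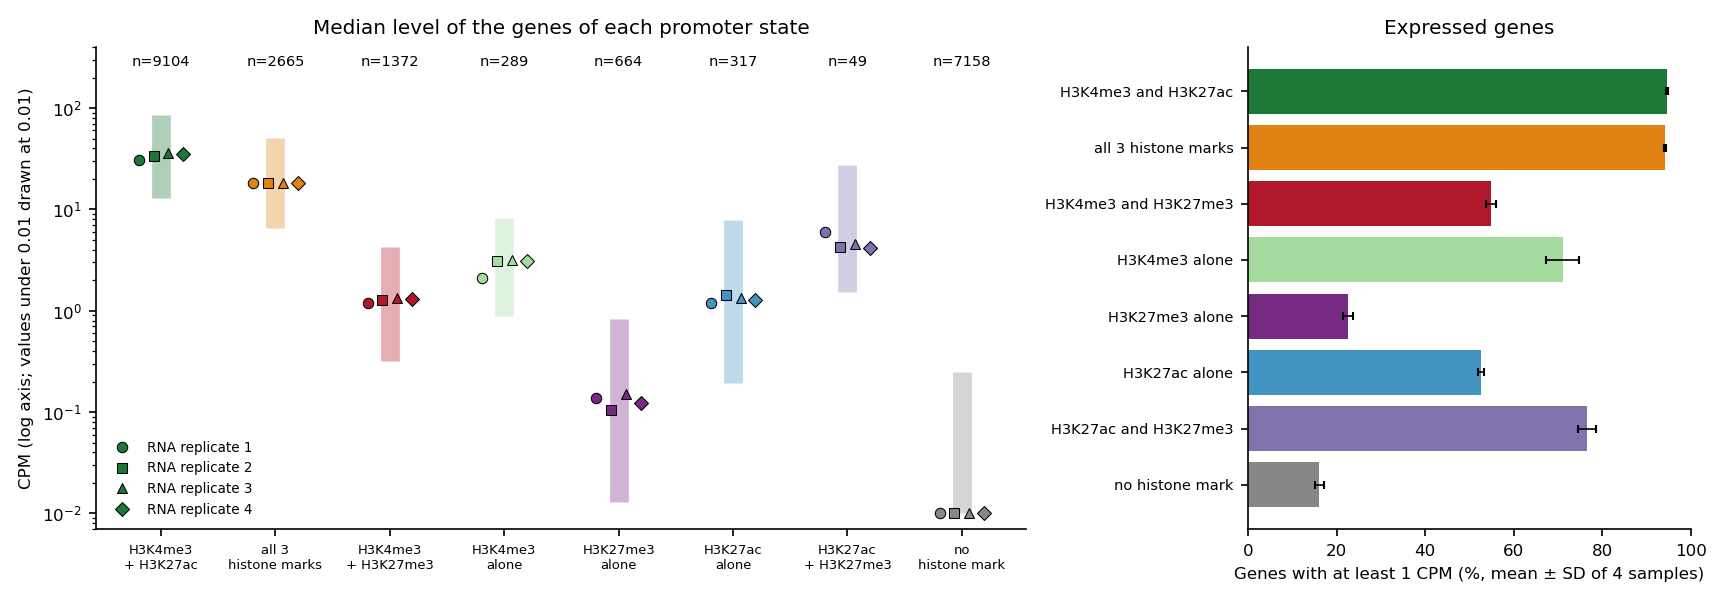
Left: median CPM over the genes of each promoter state in each of the 4 RNA samples (symbols, log axis), with a bar from the lower to the upper quartile of the genes' mean CPM. Right: percentage of the genes of each state with at least 1 CPM, mean and SD of 4 samples. The 4 medians of the active state lie between 30.7 and 35.8 CPM, above those of every other state.

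Each difference was taken within a sample, as the median log2(CPM + 1) of one state minus that of the other, and its sign was tested by an exact sign-flip permutation test over the 4 samples (two-sided). With 4 samples this exact test cannot go below p = 0.13, so no contrast could pass 0.05. The sign was the same in 4 of 4 samples for 14 of the 15 contrasts, each with an exact permutation p = 0.13 (0.13 also after Benjamini-Hochberg adjustment over the 15). In 5 of the 14 the lower group had a median of 0 in every sample, so the sign of these was fixed. Active genes stood 5.11 ± 0.09 above unmarked genes, 3.93 ± 0.05 above genes with H3K4me3 and H3K27me3, and 0.85 ± 0.09 above genes with all 3 marks. On the linear scale the last 2 steps were 26.4-fold ± 0.466 and 1.84-fold ± 0.114. Genes with all 3 marks stood 3.08 ± 0.04 above those without the H3K27ac, a 14.4-fold ± 0.733 difference between promoters that share H3K4me3 and H3K27me3. H3K27me3 alone lay 1.01 ± 0.05 below H3K4me3 with H3K27me3 and 0.18 ± 0.02 above no mark. Without RNA replicate 1 these differences were 5.16, 3.95, 0.89, 3.07, 1.04 and 0.17 in the same order. Among genes with at least 1 CPM in at least 1 sample, genes with H3K4me3 and H3K27me3 lay below unmarked genes (-0.58), as did those with H3K27me3 alone (-0.84), so both of those steps rest on the silent genes of the unmarked state. Exon length differed between states, with a median of 6520 bp for active genes and 2525 bp for unmarked genes. Per kb of exon the order of the 5 main states was the same, with medians of 5.09 ± 0.337, 2.81 ± 0.0341, 0.296 ± 0.0133, 0.0415 ± 0.0017 and 0 CPM per kb.

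Of the active genes 93.4% were expressed and 1.52% had 0 counts in all 4 samples. Those with the highest levels were Tuba1a (5156, 1834, 2205 and 1897 CPM per kb in replicates 1 to 4), Tmsb10, which encodes an actin-binding thymosin (2301, 1004, 1442 and 1269), and Nnat, the imprinted gene neuronatin (1658, 598, 759 and 640). In all of them replicate 1 was the highest sample. Their H3K4me3 peaks were broad: 76.5 ± 10.9 fold over background and 5254 bp for Tuba1a, 62.0 ± 20.1 and 4604 bp for Tmsb10 and 61.6 ± 15.3 and 7179 bp for Nnat (SD over 3 ChIP-seq replicates here and below), against a median of 57.9 fold and 2410 bp for the state. In fold enrichment Tmsb10 and Nnat lay within their SD of this median. The H3K27ac enrichment of Tuba1a, Tmsb10 and Nnat (51.1 to 62.0 fold) lay far above the median of 24.0 for active genes.

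Within the active state, levels increased with the marks. In 4 equal groups of the genes by the width of the H3K4me3 peak the median was 13.7 ± 1.03, 28.1 ± 2.15, 45.1 ± 4.10 and 79.0 ± 7.56 CPM, and by the H3K27ac fold enrichment it was 15.8 ± 0.867, 31.5 ± 2.28, 43.0 ± 3.62 and 70.1 ± 9.75 CPM. The 4 samples of one group did not overlap with those of the next in either series. Part of this step went with length, since the median exon length was 5680 bp in the group with the narrowest H3K4me3 peaks and 7470 bp in that with the widest, but the order was the same per kb (2.36, 4.39, 6.45 and 9.70 CPM per kb). The widest group also had more CpGs around the start, with a median of 69 against 47 in 1001 bp. The part of CpG content in the step was not tested.

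**Figure D2:**
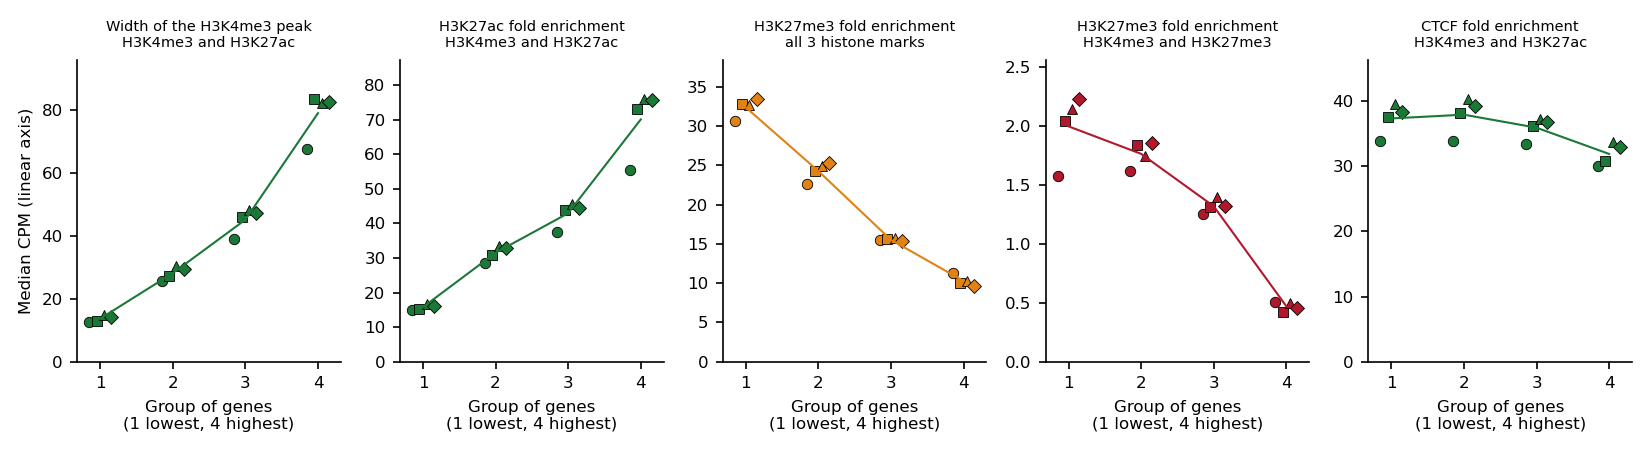
Median CPM (linear axis) in 4 equal groups of the genes of a state, from the lowest to the highest peak width or fold enrichment, for each of the 4 RNA samples (symbols as in the plot of levels by state) and their mean (line). Levels climb with H3K4me3 width and H3K27ac (13.7 to 79.0 and 15.8 to 70.1 CPM), and drop with H3K27me3 in both states that share it with H3K4me3 (32.4 to 10.3 and 2.00 to 0.470 CPM). By CTCF they are lowest in the group with the strongest peaks (31.9 CPM, against 35.9 to 37.9 CPM in the others).

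Of the 2665 genes with all 3 marks, those with the highest levels were Dpysl3, a collapsin response mediator of growing axons (591, 463, 400 and 374 CPM per kb), Tubb3, the neuronal beta tubulin (726, 253, 272 and 233), and Ina, the neurofilament alpha-internexin (522, 286, 302 and 281). The list members with the next highest levels were Stmn2 (236 ± 13.9), Mapt, which encodes tau (193 ± 81.4), the ribosomal protein gene Rpl38 (159 ± 39) and the radial glial inhibitor Id4 (130 ± 19.4). H3K27me3 was weak at all of these, at 2.56 ± 0.170 fold (Id4) to 3.73 ± 0.382 fold (Mapt), against a median of 3.98 fold for the state and 6.88 fold for H3K4me3 with H3K27me3. The genes of the state went down in level as H3K27me3 went up. In 4 equal groups by H3K27me3 fold enrichment the median was 32.4 ± 1.23, 24.3 ± 1.16, 15.5 ± 0.173 and 10.3 ± 0.734 CPM, with no overlap between the samples of neighbouring groups. Part of this step went with length, since the median exon length was 7473 bp in the lowest group and 5226 bp in the highest. The order was the same per kb (4.30, 3.48, 2.42 and 1.92 CPM per kb). The lowest group, at 2.41 to 3.13 fold, came close to the median of the active state in CPM (33.7 ± 2.24). Per kb it lay below that state (4.30 ± 0.176 against 5.09 ± 0.337 CPM per kb). Of all genes with all 3 marks 92.1% were expressed.

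Genes with H3K4me3 and H3K27me3 but no H3K27ac were expressed in 45.3% of cases and at 0 counts in 3.86%, so most gave some reads. Their H3K4me3 was narrower and weaker than in the active state, with a median width of 1082 bp and 20.8 fold. In 4 equal groups by H3K27me3 the median level was 2.00 ± 0.290, 1.76 ± 0.106, 1.32 ± 0.0585 and 0.470 ± 0.0415 CPM, and the first of these groups overlapped in range with the next through replicate 1. By H3K4me3 fold enrichment it ran the other way, from 0.590 ± 0.0465 through 0.835 ± 0.0454 and 1.68 ± 0.103 to 2.85 ± 0.263 CPM. Per kb of exon both series kept their direction, from 0.432 to 0.144 and from 0.178 to 0.486 CPM per kb. The highest levels were those of Sbk1, a brain kinase (258, 96.9, 106 and 94.1 CPM per kb), the translation factor gene Eif5a (93.7, 35.7, 49.7 and 46.1) and the kinase gene Akt1 (59.7, 23.2, 26.0 and 24.2). All were highest in replicate 1. Some 31.8% of the exonic bases of Eif5a and 52.0% of those of Akt1 are also exonic in another gene, and reads that overlap more than 1 gene were not counted. Below them came Pcgf3, a subunit of a Polycomb repressive complex (14.3 ± 2.67), the collagen gene Col1a1 of the meninges (13.1 ± 3.97), the axon initial segment gene Ank3 (12.3 ± 3.50), and the neuropeptide genes Sst (5.17 ± 1.37) and Trh (4.94 ± 2.26). Eif5a and Akt1 had H3K27ac in 2 of 3 replicates and so lay just outside the rule for this mark. With every annotated transcript start allowed, Sbk1, Eif5a, Akt1, Pcgf3 and Ank3 had all 3 marks, as did 200 of all 1372 genes. Col1a1, Sst and Trh stayed in the state.

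H3K4me3 alone, with neither of the other marks, was found at 289 genes with a median of 2.86 ± 0.521 CPM, of which 62.3% were expressed. The active state lay 3.18 ± 0.13 above it on the log2(CPM + 1) scale, in 4 of 4 samples (exact p = 0.13). Replicate 1 was the low sample here (2.08 CPM against 3.09 to 3.18). Among the 214 genes of the state with a mean of at least 1 CPM, replicate 1 differed from the mean of the others by a median of -0.44 (log2). The members with the highest levels were Cox4i1, a subunit of cytochrome c oxidase (72.9 ± 33.2 CPM per kb), Arxes1 (55.8 ± 6.26) and the transcriptional coactivator gene Sub1 (51.8 ± 20.1). The H3K4me3 of Cox4i1 was as strong as at active genes (71.7 ± 1.51 fold, 3188 bp wide), whereas the median of the state was 15.9 fold and 797 bp. Cox4i1 and Arxes1 had H3K27ac in 2 of 3 replicates and Sub1 in 1. With every annotated transcript start allowed, Cox4i1 and Sub1 were active, as were 36 of all 289 genes.

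H3K27me3 alone marked 664 genes, of which 17.8% were expressed and 21.1% had no count in any sample. The members with the highest levels were Ppp2r2b (34.3 ± 2.66 CPM per kb), which encodes a phosphatase subunit, Zbtb12 (24.9 ± 7.74) and the mitochondrial channel gene Vdac3 (17.8 ± 2.36). Among the gene lists they were the proteasome gene Psmd5 (7.30 ± 0.432), the microglial complement genes C1qa (3.15 ± 2.06) and C1qc (2.17 ± 1.05), the keratin gene Krt1 (2.24 ± 0.801) and the hypothalamic peptide gene Pomc (2.14 ± 0.943). With every annotated transcript start allowed, 78 of the 118 expressed genes of the state (66.1%) had H3K4me3 in all 3 replicates, against 152 of all 664 (22.9%).

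H3K27ac without H3K4me3 was rare. The 317 genes with H3K27ac alone had a median of 1.31 ± 0.0901 CPM, and 45.7% were expressed. On the log2(CPM + 1) scale they stood 1.21 ± 0.06 above unmarked genes (exact permutation p = 0.13). The sign of this difference was fixed, because the median of the unmarked genes was 0 CPM in every sample. Among genes with at least 1 CPM in at least 1 sample the difference was 0.067. Ywhaz, a 14-3-3 protein gene (195 ± 19.4 CPM per kb), Ttr, the transthyretin gene of the choroid plexus (95.7, 132, 72.8 and 151), and Septin3 (112 ± 21.9) had the highest levels. Of the 145 expressed genes, 83 (57.2%) had H3K4me3 at another transcript start, against 97 of all 317 (30.6%). The 49 genes with H3K27ac and H3K27me3 had a median of 4.75 ± 0.80 CPM, with Ldha (46.4 ± 15.4 CPM per kb), Csk (22.0 ± 11.9) and Serpine2 (13.4 ± 3.40) at the top. The list members with the highest levels in this small state had broad H3K27me3: Tbr1, a factor of early cortical neurons (5.17 ± 1.28 CPM per kb, H3K27me3 13.5 ± 1.13 fold over 20405 bp), Hopx, of the astrocyte and radial glial list (3.36 ± 0.561, 4.55 ± 0.376 fold over 29962 bp), Fezf2 (1.56 ± 0.601, 13.4 ± 1.76 fold over 27229 bp), the hypothalamic factor Hmx2 (1.32 ± 0.354, 16 ± 2.1 fold over 29123 bp) and the endothelial factor Sox17 (0.758 ± 0.0544, 15.7 ± 1.5 fold over 20556 bp). Tbr1, Fezf2, Hmx2 and Sox17, and Ywhaz above, had H3K4me3 in 2 of 3 replicates and so lay just outside the rule. Hopx had H3K4me3 in 0 of 3 replicates and the weakest H3K27me3 of these list members. With every annotated transcript start allowed, all of these list members had all 3 marks, as did 28 of the 49 genes. The marks need not lie at the same start.

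Unmarked genes were mostly silent, with 49.3% at 0 counts in all 4 samples, yet 938 (13.1%) were expressed and the state took 5.44% of the counts. Its highest members were Tmsb10b (474 ± 136 CPM per kb), the chaperone genes Hsp90ab1 (365 ± 139) and Hsp90aa1 (194 ± 66.0), the ribosomal protein gene Rpl41 (223 ± 85.5) and the globin gene Hbb-bs (381, 124, 206 and 105). Most such genes carried H3K4me3 at a start other than the outermost one that defines the gene. Of the 938 expressed genes 593 (63.2%) had H3K4me3 in all 3 replicates once every annotated transcript start was allowed. Of the 429 with at least 10 CPM in all samples 386 (90.0%) did. Over all 7158 unmarked genes the share was 9.85%. With every annotated transcript start allowed, 6263 genes had no mark, and 33 of the 429 genes at 10 CPM or more were among them. The state of a gene is thus a statement on its outermost start and not on all of its promoters.

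The reverse case, an active promoter with no RNA, was met at 138 genes with 0 counts in all 4 samples. The members with the strongest H3K4me3 were Gm28635 (78.9 ± 3.97 fold), Gm49450 (76.5 ± 10.9 fold) and Gm49383 (73.9 ± 4.83 fold). All of their exonic bases are shared with another gene, and Gm49450 has the same H3K4me3, H3K27ac and CTCF values as Tuba1a, whose peaks fall in its window as well. The authors' counting leaves out reads that overlap more than 1 gene. At least 50% of the exonic bases were shared with another gene at 103 of the 138 genes (74.6%), against 4.81% of all active genes, and 24 were replication-dependent histone genes. These 2 groups together made up 121 of the 138 and left 17, of which 7 had another protein-coding gene start within 2 kb.

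**Figure D3:**
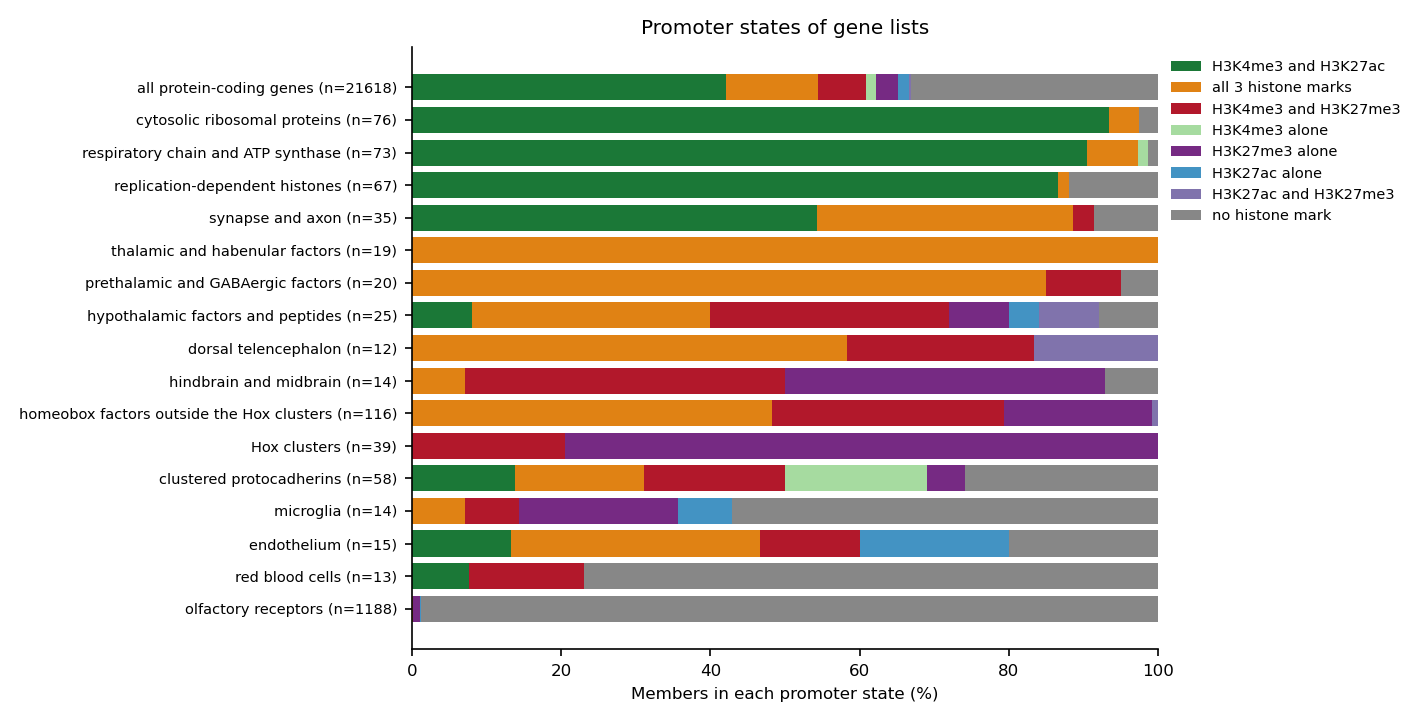
Percentage of the members of each gene list in each of the 8 promoter states (stacked bars, one list to a bar, with all 21618 protein-coding genes on top). Ribosomal, respiratory and histone genes are mostly active, the thalamic and homeobox factors carry H3K27me3, the Hox genes have H3K27me3 without H3K27ac, and olfactory receptor genes have no mark.

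Gene lists show which functions filled each state. The housekeeping lists were mostly active. Of 76 cytosolic ribosomal protein genes 71 were active, 3 had all 3 marks and 2 had no mark at the outermost start but H3K4me3 at another, against 42.1% active over all genes, and 74 of the 76 were expressed, with a median level of 207 ± 32.9 CPM. Rps4x (254 ± 44.7 CPM per kb) and Rpl7a (252 ± 93.1) were the highest, and Rpl24 (0.214 ± 0.144) and Rps10 (0.289 ± 0.0671) the lowest, both with strong H3K4me3 (61.0 ± 12.8 and 53.5 ± 10.8 fold). Ribosomal protein genes have many processed copies, and 56.0% of the exonic bases of Rpl24 are shared with another gene. The part of either in these low counts was not tested. Of 73 genes of the respiratory chain and ATP synthase 66 were active and 5 had all 3 marks, and 72 were expressed (median 53.1 ± 9.75 CPM), from Atp5f1b (172 ± 67.1 CPM per kb) to Ndufb6 (2.06 ± 0.479), with Atp5po, wholly overlapped by another gene, at 0. Of 39 proteasome subunit genes 32 were active, all of them expressed, led by Psmc1 (53.4 ± 10.8) and Psmd2 (50.6 ± 13.1). Of the others 3 had no mark at the outermost start, 2 had H3K27me3 alone, Psmd5 among them, and 2 had H3K4me3 and H3K27me3. The last pair were Psmb8 and Psmb9, interferon-induced subunits of the immunoproteasome, with a median of 0.189 ± 0.0695 CPM over the 2 genes.

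The 67 replication-dependent histone genes, which are made in S phase and whose messages end in a stem loop and carry no poly(A) tail, had active promoters (58 genes) but few counts. Only 5 were expressed and 30 were at 0 in all samples. H2bc27 (23.5 ± 7.31 CPM per kb) and H2ac25 (8.24 ± 0.477) were the highest, while H2ac18 and H2ac19 were at 0 with H3K27ac at 41.3 ± 8.02 and 16.3 ± 4.83 fold, and all of the exonic bases of this last pair are shared with other genes. The RNA was selected by its poly(A) tail.

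Developmental transcription factors made up the other extreme, and H3K27me3 was on nearly all of them. All 39 Hox genes, which set position along the trunk and hindbrain, had H3K27me3, 31 of them alone and 8 with H3K4me3, and none had H3K27ac. None was expressed, 33 were at 0 counts in all samples, and the highest, Hoxd8, reached 0.0425 ± 0.0368 CPM per kb. Their H3K27me3 was the strongest of the lists, with a median of 20.1 fold, in domains such as the 136041 bp over Hoxd8, Hoxd12 and Hoxd13 and the 188670 bp over Hoxa2. All 116 homeobox genes outside the Hox clusters had H3K27me3 too, against 22.0% of all genes. They divided by the other marks. With H3K4me3 and H3K27ac (56 genes) the median was 18.1, 13.8, 13.6 and 12.3 CPM and 54 were expressed. With H3K4me3 but no H3K27ac (36 genes) it was 0.208, 0.105, 0.0746 and 0.144 CPM and 4 were expressed, and with H3K27me3 alone (23 genes) it was 0.0463, 0.0524, 0 and 0.0412 CPM and 1 was expressed. The first group did not overlap with the others in any sample. H3K27me3 itself hardly differed between these groups, with medians of 12.3, 14.4 and 14.7 fold and ranges of 2.95 to 17.7, 2.89 to 17.1 and 2.73 to 20.1 fold.

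**Figure D4:**
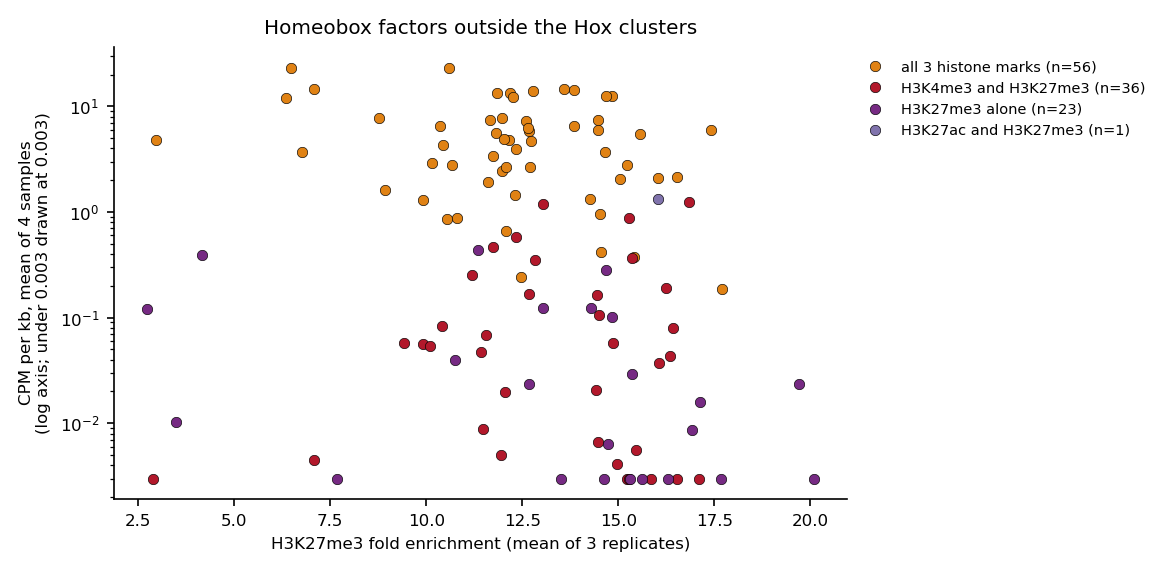
CPM per kb (log axis, mean of 4 samples, values under 0.003 drawn at 0.003) against H3K27me3 fold enrichment (mean of 3 replicates) for 116 homeobox genes outside the Hox clusters, 1 point to a gene, coloured by promoter state. The states overlap along the H3K27me3 axis, from 2.95 to 17.7 fold with all 3 marks and 2.89 to 17.1 fold without H3K27ac, and separate along the level axis.

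Among the homeobox genes with all 3 marks Prox1 (13.2, 30.8, 23.4 and 25.7 CPM per kb) and Lhx9 (10.8, 27.3, 26.2 and 27.5) were the highest and both were lowest in replicate 1. Their H3K27me3 domains spanned 19351 and 24058 bp, and their H3K4me3 peaks 10884 and 19829 bp, both far above the median of 2494 bp for the state. Mnx1, the motor neuron factor, and Nkx3-2, a factor of the axial skeleton, stood at 0 counts with H3K4me3 and H3K27me3 (H3K27me3 17.1 ± 2.17 and 16.5 ± 1.91 fold). Of 49 forkhead, Gata, T-box and Sox genes 46 had H3K27me3, 25 with both other marks. Sox4 (145 ± 22.0 CPM per kb) and Sox11 (62.9, 117, 99.6 and 94.4), SoxC factors of newborn neurons, were the 2 active genes of the list, and the highest in level. Foxe1, a thyroid factor, and Gata5, a factor of heart and gut, were at 0. The lists of factors overlap: Prox1, Lhx9 and Gata3, for example, belong to several.

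All 19 thalamic and habenular genes had all 3 histone marks, against 12.3% of all genes, and all were expressed, with a median of 103 ± 35.9 CPM. Tcf7l2, which specifies thalamus and habenula, had 111 to 135 CPM per kb and Zic1 97.1 to 119 over the 4 samples, so both varied little. Gbx2, an early thalamic factor, had 14.1 ± 4.67 CPM per kb, highest in replicate 1. Etv1 (3.56 ± 0.869) and Rorb (3.61 ± 1.57) were the lowest. At Zic1 the H3K4me3 peak was 30370 bp wide within an H3K27me3 domain of 71031 bp, and at Tcf7l2 the widths were 12249 and 13276 bp. Of 20 prethalamic and GABAergic genes 17 had all 3 marks and all 20 were expressed (median 23.3 ± 6.95 CPM). Gad2, one of 2 genes for the enzyme that makes GABA, was one of these (8.55, 24.4, 24.3 and 23.7 CPM per kb), while Gad1 (21.3 ± 2.73) had no mark at its outermost start and H3K4me3 at another. Gata2 (0.779 ± 0.218) had weak H3K4me3 and H3K27ac (7.49 ± 1.13 and 4.68 ± 0.522 fold), and Gata3 (2.69 ± 0.386) had H3K27ac in 1 of 3 replicates only.

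The 25 hypothalamic genes were spread over 7 states, 8 with all 3 marks and 8 with H3K4me3 and H3K27me3. The highest were the factors Otp (20.5, 12.5, 14.7 and 10.7 CPM per kb) and Nkx2-1 (19.1, 10.7, 13.4 and 10.6), both with all 3 marks and H3K27me3 domains of 47037 and 67473 bp. Rax (0.0833 ± 0.021), a factor of the early hypothalamus and eye, and Nr5a1 (0.278 ± 0.116), the steroidogenic factor of the ventromedial nucleus, were the lowest. Rax had H3K27ac in 2 of 3 replicates and Nr5a1 in 1, so neither met the rule for this mark. For synapse and axon genes the picture was different: 19 of 35 were active, 12 had all 3 marks and all 35 were expressed, with a median of 272 ± 23.1 CPM. Gap43, the growth cone protein gene, reached 709 ± 84.1 CPM per kb with no H3K27me3, while Tubb3 had H3K27me3 of 2.87 ± 0.353 fold. Grin1, an NMDA receptor subunit gene (3.62 ± 1.41), carried H3K27me3 of 6.58 ± 1.81 fold.

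Lists of glia and of other cell types differed in their marks. H3K4me3 lay at 75% of the astrocyte and radial glial genes, 62.5% of the oligodendrocyte genes and 60% of the endothelial genes, near the 62.1% of all genes, and at 43.8% of the choroid plexus and meningeal, 23.1% of the red blood cell and 14.3% of the microglial genes. H3K27me3 lay at 55%, 56.3%, 46.7%, 43.8%, 15.4% and 35.7% of these lists in the same order, against 22.0% of all genes. Among 20 genes of astrocytes and radial glia 9 had all 3 marks and 6 were active, with Fabp7, of radial glia, at 74.6, 289, 476 and 513 CPM per kb, and with Gfap at 1.09 ± 0.277 and S100b at 0.926 ± 0.356, both astrocyte genes without H3K4me3 at the gene start. Among 16 oligodendrocyte genes the early factor Olig1 had all 3 marks (18 ± 5.72) and 5 had no mark, of which 3 were expressed. These 5 ran from the myelin genes Opalin and Mobp (0.00197 ± 0.00394 and 0.0122 ± 0.00889) to the myelin gene Mog (5.19, 15.8, 13.7 and 14.5 CPM per kb), lowest in replicate 1. Of 14 microglial genes 8 had no mark, and 9 of the 14 were expressed. Trem2 had no mark (0.160 ± 0.0846) and Irf8 had H3K4me3 and H3K27me3 (0.192 ± 0.0774). Of 13 red blood cell genes 10 had no mark, among them Hbb-bs and Alas2, the enzyme that starts heme synthesis (14.2, 4.99, 4.11 and 2.98 CPM per kb). Of 15 endothelial genes 3 had no mark. Cldn5 had all 3 marks (31.4, 12.8, 16.2 and 12.6 CPM per kb), and Slc2a1, the glucose transporter of the blood-brain barrier, was active (13.9 ± 5.90). Of 16 choroid plexus and meningeal genes 7 had no mark and 15 were expressed.

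Of the genes listed for the telencephalon 12 of 12 had H3K27me3, and of those listed for the hindbrain and midbrain 13 of 14, against 22.0% of all genes. The first list holds Nkx2-1, its highest member, which also belongs to the hypothalamic list. They differed in H3K27ac, which lay at 9 of the 12 telencephalic genes and 1 of the 14 hindbrain and midbrain genes, and in level, with medians of 10.7 ± 1.42 and 0.628 ± 0.280 CPM. Emx1 of the cortex (0.0375 ± 0.0608 CPM per kb) had H3K4me3 and H3K27me3. Atoh1, the factor of the rhombic lip, and Hoxa2 were at 0 in every sample, and Barhl1 (1.32 ± 0.537), expressed in the midbrain and cerebellum and also in the hypothalamus, was the gene with H3K27ac. Slc6a3, the dopamine transporter (2.74 ± 0.551), had H3K4me3 and H3K27me3.

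Receptor and keratin genes were mostly unmarked, against 33.1% of all genes. Of 1188 olfactory receptor genes 1174 had no mark, 0 were expressed and 1005 were at 0 counts in all samples, and of 351 vomeronasal receptor genes 348 had no mark and 299 were at 0. The highest of them, Or5p58 (0.549, 1.04, 0.381 and 1.07 CPM per kb) and Vmn2r87 (0.713 ± 0.401), stayed low. Their promoters had a median of 4 and 3 CpGs in 1001 bp, against 36 over all genes. Of 165 keratin and keratin-associated genes 146 had no mark and 5 were expressed. The active one was Krt222 (1.74, 5.77, 4.77 and 6.06 CPM per kb), and Krt10 reached 3.13 ± 0.741 without a mark at its start. The 58 clustered protocadherin genes, alternative first exons for cell-surface identity in neurons of which each cell uses a few, spread over 6 states, with 15 unmarked, 11 each with H3K4me3 alone and with H3K4me3 and H3K27me3, 10 with all 3 marks and 8 active. CTCF lay at 34 (58.6%) of them. Their medians by state lay between 6.44 ± 1.81 CPM (H3K27me3 alone) and 17.9 ± 3.75 CPM (active). Their exons overlap, 93.0% for Pcdha4 and 100% for Pcdhga10, which both stood at 0, so their counts are uncertain.

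The lists for the machinery of these marks had more active genes than the 42.1% of all genes. Of 32 Polycomb genes 19 were active and 9 had all 3 marks, and all 32 were expressed, from Rnf2, the catalytic E3 ligase of complex 1 (13.9, 35.1, 35.3 and 36.1 CPM per kb), and Rbbp4 (21.4 ± 4.56) to Pcgf5 (0.734 ± 0.248) and Phf19 (0.629 ± 0.196), both of which carried H3K27me3 (5.41 ± 1.09 and 7.8 ± 0.778 fold). With H3K27me3 on 11 of 32, the list lay above the 22.0% of all genes. Of 15 genes of CTCF and cohesin 9 were active, Ctcf (23.1 ± 3.26) and Rad21 (62.1 ± 10.8) among them, while Ctcfl, the testis paralog of Ctcf, was unmarked at 0 and the meiotic cohesin gene Smc1b had H3K4me3 and H3K27me3 (0.0954 ± 0.0518). Of 24 CpG readers and H3K4 methyltransferase genes 17 were active, and all 24 were expressed. The 5 without a mark at the outermost start, such as Dnmt1, the maintenance DNA methyltransferase (24.4 ± 5.82), and Dpy30, a core subunit of the H3K4 methyltransferases (28.3 ± 6.22), all had H3K4me3 at another.

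CTCF lay at 58.2% of active promoters, 59.9% with all 3 marks, 40.5% with H3K4me3 and H3K27me3, 31.5% with H3K4me3 alone and 20.8% to 24.5% in the other marked states, against 6.27% without a histone mark. Over all genes those with CTCF stood at a median of 23.1 ± 1.02 CPM and those without at 0.731 ± 0.0894 CPM. Within a state the gap was smaller, and its direction differed between states. Active genes with CTCF stood at 33.0, 35.9, 37.5 and 36.4 CPM in replicates 1 to 4 and those without at 27.8, 30.6, 33.4 and 32.7 CPM, higher within each sample though the 2 ranges overlap, by 0.19 ± 0.04 on the log2(CPM + 1) scale (exact permutation p = 0.13). The differences were 0.29 ± 0.04 with all 3 marks, 0.22 ± 0.06 with H3K4me3 and H3K27me3 and 0.62 ± 0.08 with H3K27ac alone, all above 0 in 4 of 4 samples (exact permutation p = 0.13). With no mark it was 0.26 ± 0.06, which could not be negative because the median without CTCF was 0 CPM in every sample, and among genes of at least 1 CPM in at least 1 sample it turned to -0.0679. With H3K4me3 alone the difference was -0.05 ± 0.15 and above 0 in 1 of 4 samples (exact permutation p = 0.5). Without RNA replicate 1 the differences were 0.18, 0.28, 0.24, 0.59, 0.29 and -0.12 in the same order. In the 2 states not among the contrasts the medians were lower with CTCF. With H3K27ac and H3K27me3 they were 2.08, 1.34, 1.84 and 1.81 CPM in replicates 1 to 4 for the 12 genes with CTCF and 7.78, 4.40, 5.02 and 4.57 CPM for the 37 without. With H3K27me3 alone they were 0.0824 to 0.105 CPM for 140 genes and 0.124 to 0.149 CPM for 524, a gap of about 1 count. The ranges did not overlap in either state, and these differences were not tested. The difference with all 3 marks turned to -0.15 when peaks needed a -log10 q of at least 5, and that with H3K27ac alone to -0.28 in a window of 5 kb. The genes with the strongest CTCF peaks were Disp3 (75.1 ± 9.89 fold, all 3 marks), and the active genes Tnfaip3 (74.5 ± 3.62), Arid3a (73.5 ± 15.3), Med4 (72.3 ± 14.8) and Wrap53 (71.2 ± 8.34). Their levels were modest, from 0.571 ± 0.143 CPM per kb for Tnfaip3, an inhibitor of NF-kB signalling, to 9.05 ± 1.64 for Med4, a Mediator subunit gene.

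**Figure D5:**
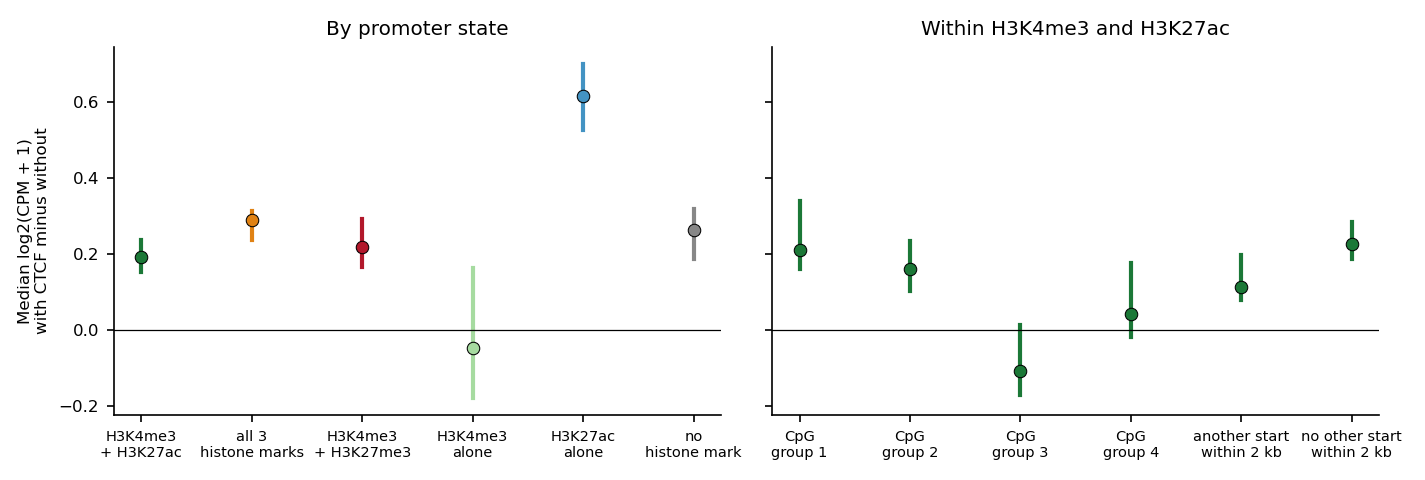
Median log2(CPM + 1) of genes with CTCF minus that of genes without, for the 6 promoter states among the contrasts (left) and within active genes by 4 equal groups of CpG number and by another gene start within 2 kb (right). Points are the mean and bars the lowest to the highest of 4 RNA samples, and the difference is 0.62 at most (H3K27ac alone) and its mean lies below 0 for H3K4me3 alone (-0.05) and for CpG group 3 (-0.11). The states H3K27me3 alone and H3K27ac with H3K27me3, where the medians were lower with CTCF, are not drawn.

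Promoters with CTCF also had more CpGs, and the difference in level changed with them. In 4 equal groups of active genes by CpG number the difference was 0.21 ± 0.09 and 0.16 ± 0.05 in the 2 groups with the fewest CpGs (4 of 4 samples above 0 in each, exact permutation p = 0.13), -0.11 ± 0.08 in group 3 (1 of 4, p = 0.25) and 0.04 ± 0.09 in the group with the most (3 of 4, p = 0.625). Without CTCF the median level of the groups ran from 19.8 to 57.3 CPM, a wider span than that between genes with and without CTCF in any group. The difference stood at 0.12 ± 0.06 for genes with another gene start within 2 kb and 0.23 ± 0.04 for those with none (4 of 4 samples above 0 in each). These 6 comparisons were chosen after the data had been seen, and their lowest p adjusted over the 6 was 0.19 (exact permutation test). Stronger CTCF did not go with higher levels: in 4 equal groups of the active genes with CTCF by its fold enrichment the median was 37.3 ± 2.4, 37.9 ± 2.85, 35.9 ± 1.72 and 31.9 ± 1.76 CPM. The group with the strongest CTCF (30.1 to 33.8 CPM) was the lowest in each sample. It overlapped in range with the third group only (33.4 to 37.3 CPM).

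The letters AGNGGGC, a core of the CTCF motif, were searched on both strands within 500 bp of each gene start, with N for any base. They stood at 54.9% of all 21618 promoters, at 67.4% of those with CTCF and 47.3% of those without. Among active promoters the shares were 68.2% and 61.2%, among unmarked promoters 51.2% and 33.9%, and for H3K4me3 alone 64.8% and 48.5%. They were 71.2% and 66.6% with all 3 marks and 65.7% and 52.7% with H3K27me3 alone. The gap was small with H3K4me3 and H3K27me3 (64.9% and 62.4%) and with H3K27ac alone (53.0% and 51.0%). With H3K27ac and H3K27me3 the share was lower with CTCF (41.7% of 12 genes) than without (59.5% of 37). CTCF peaks at active promoters were weaker and nearer to the start (median 9.96 fold, centre 312 bp away) than those at unmarked promoters (14.4 fold, 1021 bp). A match is a count of letters in a window and not a bound site.

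CpG content, which did not enter the grouping, differed between the states. The median number of CpG dinucleotides in the 1001 bp around the gene start was 59 for active genes, 56 with all 3 marks, 43 with H3K4me3 and H3K27me3, 27 with H3K4me3 alone, 19 with H3K27me3 alone, 16 with H3K27ac and H3K27me3, 14 with H3K27ac alone and 8 with no mark. Windows with the base composition of a CpG island (GC of 50% or more, CpG at 0.6 or more of the number that base content predicts) made up 70.3% of the active state, 59.9% with all 3 marks, 40.3% with H3K4me3 and H3K27me3, 8.89% with H3K27me3 alone and 1.40% with no mark. In the 4 states with H3K4me3 the median was thus 27 or more, and in the 4 without it 19 or less. The 6 promoters printed above follow this order only in part: Sox11 had 100 CpGs in 1001 bp, Atoh1 60, Tcf7l2 59, Hoxa2 49, Tuba1a 40 and Alas2 8. Stmn2 (all 3 marks) and Gap43 (active), both highly expressed neuronal genes, had 10 and 17. Another protein-coding gene started within 2 kb of 25.8% of active genes, against 10.1% with all 3 marks and 3.24% with none, so windows shared by neighbouring genes were most common in the active state.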

How the data were processed

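RNA and chromatin of the diencephalon of wild type E17.5 mice were analysed: 4 RNA samples and 12 peak lists (3 replicates each of H3K4me3, H3K27ac, H3K27me3 and CTCF), each from 3 pooled embryos. The authors aligned poly(A)-selected RNA reads to mm39 with STAR (2.7.9a in the submitters' processing notes) and deposited raw counts per gene of GENCODE release M31, with column 2 without strand, columns 3 and 4 for each strand. Column 2 was used, and rows that name no gene (48.1% to 55.2% of the reads) were left out. ChIP-seq reads were aligned with Bowtie2 (2.4.2), multi-mapping reads and duplicates were removed, and peaks were called per replicate with MACS2 (2.2.7.1). Each deposited list holds, per peak, a fold enrichment over background (a ratio) and the -log10 of the p-value and q-value. The H3K27me3 lists are in the broad form, with q up to 0.1 against 0.05 for the others. H3K4me3, H3K27me3 and CTCF shared an input per replicate and H3K27ac had its own, and the H3K27ac antibody lot is described as also binding H2BK5ac. The lists hold no read depth, and peak values are given without an interval.

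CPM was the count over the sum of gene counts. A gene start was the 5′ end of the gene in GENCODE M39 on GRCm39, and at least 1 bp of overlap with the 2 kb on either side was required. Where every annotated transcript start was allowed, each mark in each replicate could lie at any of them, so marks need not share a start. Medians over genes were compared within each sample as log2(CPM + 1), with an exact sign-flip permutation test over samples. Genes are not replicates, so no test was made over genes and no list was tested. CPM per kb divides by the merged exon length. This length and the share of exonic bases in other genes come from GENCODE M39, while the counts were made on M31. Both may therefore differ for some genes from those behind the counts. Nothing in the labels ties RNA samples to ChIP-seq samples. The labels give separate pools as replicates, and the p-values are taken over these pools. Where all samples have the same sign the sign-flip test gives its lowest possible p, whatever the spread between pools.

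The grouping, the contrasts and the gene lists were chosen with earlier results of these data known. Named genes were set by rule: the 3 highest in CPM per kb per state (5 for no mark), up to 5 list members for states with H3K27me3, the 5 strongest CTCF peaks, up to 3 active genes at 0 counts, the highest and lowest members of each list (up to 4) and fixed markers. Some genes that the rule names are not reported here. Psmb8, Gm49450 against Tuba1a, and the genes whose sequences are printed were chosen after their values were seen. Alternatives were other windows, starts, replicate numbers and q thresholds, equal peak numbers, the strand column, TMM library sizes (edgeR 4.0.16, R 4.3.3, used for nothing else), per-length levels, another pseudocount, filters on genes, the hs754-humanized lists and RNA, and leaving out each replicate. The canonical start, the H3K27me3 fold minimum of 4 and the CTCF contrast by CpG group and neighbouring start were added after seeing the data. The scripts (Python 3.11.15, numpy 2.4.6, pandas 2.3.3, matplotlib 3.10.9) were tested on simulated data, in which all 4000 genes were given their planted state.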

Additional observations from a re-analysis of the deposited data

Results flagged for a closer look

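A sample was looked at again where, in a group of 4, its gap to the nearest of the others made up more than 0.829 of the whole range (Dixon's 95% value for 4). Of 22 medians and contrasts 2 passed, and chance gives about 1 in 20. The median level of genes with H3K4me3 alone was 2.08 CPM in RNA replicate 1, below the other samples. The difference between genes with and without CTCF among those with all 3 marks was 0.24 in RNA replicate 3, below its mean of 0.29 over the 4 samples.

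Of 143 genes examined by the same measure in CPM per kb 31 passed, and RNA replicate 1 was the sample apart in 27 of them, in both directions. It was the high sample for the neuronal genes Tuba1a (5156), Tubb3 (726), Ina (522) and Mapt (315), for Nnat (1658), Sbk1 (258), Grin1 (5.72), Trh (8.34), Fezf2 (2.46) and Gbx2 (21.0), for the broadly used genes Hsp90ab1 (572), Atp5f1b (272), Psmc1 (69.6), Psmd2 (70.2), Akt1 (59.7), Csk (39.8), Dnmt1 (33.1) and Slc2a1 (22.6), and for the microglial genes C1qa (6.21) and Cx3cr1 (3.22). It was the low sample for Lhx9 (10.8), Gad2 (8.55) and Rnf2 (13.9). Replicate 4 was low for Tcf7l2 (111), and replicate 3 was low for H2ac25 (7.53) and high for Opalin (0.00789). The part of exonic GC content in these was not tested gene by gene.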

How the results depend on the processing

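Of 366 contrast values under other settings 352 had the same sign and 14 were reversed. No difference between H3K4me3 with H3K27ac and another state was reversed under any of 24 settings, and leaving out each RNA or ChIP-seq replicate gave 5.09 to 5.16 (against no mark), 0.79 to 0.91 (all 3 marks), 3.91 to 3.98 (H3K4me3 and H3K27me3) and 3.04 to 3.21 (H3K4me3 alone).

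The CTCF difference was reversed with H3K4me3 alone for peaks in at least 2 of 3 replicates (0.11), per kb (0.034), among genes with at least 1 CPM in at least 1 sample (0.41), without other gene starts within 4 kb (0.16) and with the hs754-humanized lists (0.36), and leaving out replicates gave -0.12 to 0.16. It was reversed with all 3 marks at a -log10 q of at least 5 (-0.15) and an H3K27me3 fold of at least 4 (-0.0212), with H3K27ac alone in a 5 kb window (-0.28), with no mark among genes of at least 1 CPM (-0.0679) and in active genes in CpG group 3 (-0.11). Among genes of at least 1 CPM in at least 1 sample, the differences from no mark were reversed for H3K4me3 with H3K27me3 (-0.58) and H3K27me3 alone (-0.84), since that filter removes most of the unmarked genes. The cause of the other reversals was not tested.

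Sizes of states moved by over 1.5 times in 12 cases. A -log10 q of at least 5 gave 1156 genes with all 3 marks, 625 with H3K4me3 alone, 382 with H3K27me3 alone and 19 with H3K27ac and H3K27me3. An H3K27me3 fold of at least 4 gave 1121, 603, 323 and 16. The hs754-humanized lists gave 474 with H3K4me3 alone and 26 with H3K27ac and H3K27me3, and this last state held 84 in a 5 kb window and 32 at the canonical start. Of 168 values of the expressed shares 96 moved by more than the SD of the share over the RNA samples. With every annotated transcript start allowed, 302 of 6263 unmarked genes were expressed, against 938 of 7158 at the outermost start. No paired analysis was possible because samples of only 1 group enter, beyond the pairing within each sample that the contrasts already have. Precision is limited by 4 RNA samples, 1 of which stood apart, and by levels of 2 or 3 counts for the genes with H3K27me3 alone.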
